A study of Mus musculus with 2 samples.

Results

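The genes described here encode the core machinery of clathrin-mediated endocytosis: the 3 clathrin chains (*Clta*, *Cltb*, *Cltc*), the 5 subunits of the plasma membrane adaptor AP2 (*Ap2a1*, *Ap2a2*, *Ap2b1*, *Ap2m1*, *Ap2s1*), the AP2 and clathrin binding protein CALM (*Picalm*) and dynamin 2 (*Dnm2*). They were taken from the table by symbol, and all 10 were found among the 22156 genes of the table. All 10 were also among the 12431 genes tested, those whose counts in the 2 libraries summed to at least 10. RNA came from primary mouse chondrocytes of rib cartilage in monolayer culture, and 1 library was made for each genotype, control and Myl3-KO. The KO animals carried Col2a1-Cre, which deletes in cells of the chondrocyte lineage, and floxed *Myl3* alleles. Per the methods, their controls were littermates with the floxed alleles and no Cre, newborn and on a C57BL/6J background, whereas the labels call the control genotype wild type. The methods also name articular cartilage as a source of chondrocytes, and the labels name rib cartilage.

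Clathrin-mediated endocytosis takes up receptors and their ligands from the plasma membrane. AP2 binds cargo and membrane lipids and recruits clathrin. A clathrin triskelion is built of heavy chains, each with a bound light chain, and triskelia assemble into the cage around the forming pit. CALM binds the membrane, AP2 and clathrin, and the GTPase dynamin cuts the neck of the pit. An AP2 complex holds a large alpha subunit, a large beta subunit, a medium mu subunit and a small sigma subunit, so the ratios between subunit mRNAs can be set beside the makeup of the complex.

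The control library held 17612435 counts and the Myl3-KO library 13477977, so that 3 counts, the floor used here, were 0.17 and 0.223 CPM, the counts scaled to a common library total. *Myl3*, the deleted gene, had 0 counts in both libraries, so its level could not check the genotype labels, and *Pth1r* had 18 and 11 counts. Of the 11 cartilage markers, *Acan*, *Cnmd*, *Hapln1*, *Matn1* and *Matn3* had 0 counts in both, *Col2a1* had 30 and 27, and *Sox9* had most, with 866 and 480. The summed level of the list was 58.2 CPM in the control and 45.8 CPM in the KO library, of which *Sox9* alone held 49.2 and 35.6 CPM. Of the 4 cartilage markers tested, the other 3, all with low counts, were slightly higher in the KO library, so the sum does not show a shift of the whole list. The 8 fibroblast markers summed to 18511 and 22010 CPM, led by *Col1a2* (12017 and 14039 CPM), with *Thy1* at 0 counts. Of the 7 tested, 5 were higher and 2 lower in the KO library, among the latter *Dcn* with 35.8 and 11.5 CPM. Muscle, endothelial, erythroid and immune markers summed to at most 5.06 CPM in either library, and the neuronal list to 52.4 and 49.7 CPM, mostly from *Map2*, with *Snap25* and *Stmn2* at 0 counts. The label of chondrocyte was therefore carried by few of its defining markers. In bulk RNA, fewer cells of a type and less RNA per cell cannot be told apart. With 1 library per genotype, no difference below has a replicate check, culture and genotype cannot be told apart, and each test compares the reads of these 2 libraries and not the genotypes. All intervals are 95% intervals and cover counting error only.

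The 10 genes together took the same share of reads in both libraries within counting error. They received 36479 counts in the control, 0.207% of the library (0.205 to 0.209), and 27937 counts in the KO library, also 0.207% (0.205 to 0.21, Clopper-Pearson intervals). The log2 ratio of the summed share, KO over control, was 0.00 (-0.02 to 0.02). The 3 clathrin chains summed to a log2 ratio of -0.01 (-0.04 to 0.03), the 5 AP2 subunits to -0.00 (-0.04 to 0.03), and *Picalm* with *Dnm2* to 0.03 (-0.03 to 0.09). *Cltc* and *Ap2m1* carry most reads of their complexes, so the sums mainly follow these genes. Single genes had log2 ratios from -0.35 for *Ap2s1* to 0.19 for *Ap2a2*, with 7 above and 3 below 0 and a median of 0.02.

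None of the 10 differed by a log2 ratio of 1 or more in size, a limit passed by 3.35% of all genes tested and by 0.0470% of the 6385 well-counted genes, whose counts summed to at least 1000, a group that all 10 belong to. A smaller limit of 0.25 was passed downwards by 1 gene, *Ap2s1*, and upwards by 0. With the median of genes of like length taken off, an alternative described with the length values, *Ap2s1* was at -0.22 and no longer past this limit. Of all genes tested, 14.1% passed it downwards and 20.2% upwards, and of the well-counted genes 11.0% and 10.4%. In the exact binomial test of reads against the library totals, two-sided with Benjamini-Hochberg adjustment over all genes tested, 2 members were higher and 3 lower in the KO library at an adjusted p under 0.05. Of all genes tested, 18.6% were called higher and 16.8% lower, and among well-counted genes 24.0% and 27.3%. Calls in 5 of 10 members were thus close in share to those of genes of like depth.

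**Figure D1:**
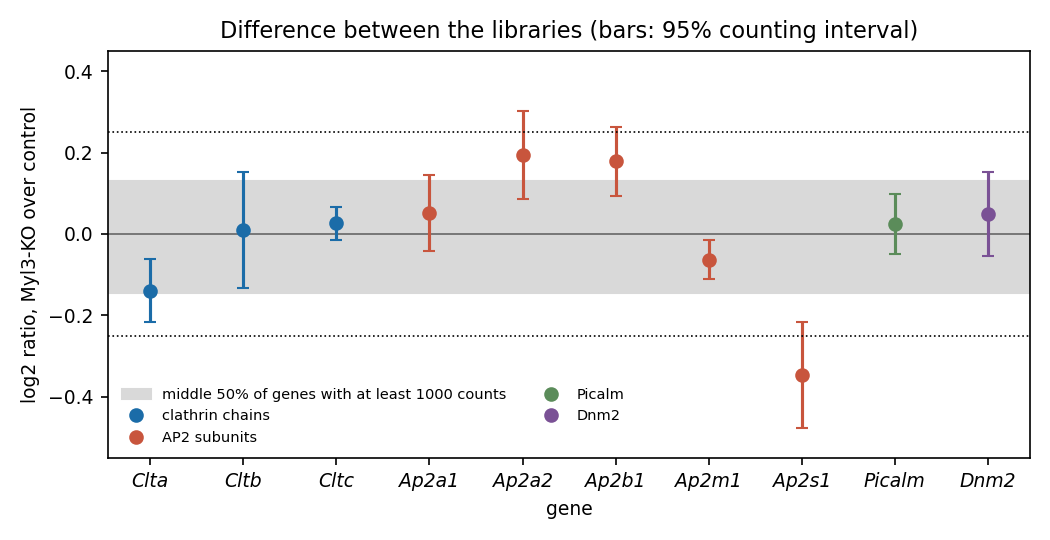
Log2 ratio of the share of reads, Myl3-KO over control (vertical axis), for each of the 10 genes, with 95% counting intervals, dotted lines at 0.25 above and below 0, and a grey band for the middle 50% of the well-counted genes (-0.146 to 0.13). Only *Ap2s1* lay past a dotted line, at -0.35, and *Ap2a2* and *Ap2b1* lay above the band.

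*Cltc*, which encodes the heavy chain that forms the legs of the triskelion, had 11603 counts in the control and 9040 in the KO library, 659 and 671 CPM. Its FPKM, a level per length, was 131.40 and 137.60. The log2 ratio was 0.03 (-0.01 to 0.07), with an exact binomial adjusted p of 0.344. The heavy chain mRNA was thus level between the libraries to within counting error, and its interval left out any difference larger than 0.07 on the log2 scale.

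*Clta*, the light chain A that binds the heavy chain, received 3254 control and 2262 KO counts, which were 185 and 168 CPM. Its FPKM was 171.55 and 155.70. The log2 ratio was -0.14 (-0.22 to -0.06), with an exact binomial adjusted p of 0.00224. It was the single clathrin chain whose reads differed. *Cltb*, the light chain B, had 915 and 705 counts, 52 and 52.3 CPM, and 26.81 and 27.25 FPKM. Its log2 ratio was 0.01 (-0.13 to 0.15; adjusted p = 0.956 in the exact binomial test), and the wider interval reflects that it was the clathrin chain with fewest counts.

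Among the AP2 subunits, the small sigma subunit stood apart from the large ones. *Ap2s1*, which encodes sigma 2, a subunit that with alpha forms the pocket for dileucine sorting signals, had 1288 counts in the control and 775 in the KO library, 73.1 and 57.5 CPM. Its FPKM was 87.48 and 68.78. The KO level was 0.786 times the control level, a log2 ratio of -0.35 (-0.48 to -0.22), with an exact binomial adjusted p of 1.17e-06. This ratio lay at the 4.09th percentile of the well-counted genes and at the 7.96th of all genes tested, so it was low without lying outside the range of other genes.

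*Ap2a2*, the alpha C subunit, and *Ap2b1*, the beta 2 subunit, which binds clathrin, were higher in the KO library. *Ap2a2* had 1520 and 1331 counts, 86.3 and 98.8 CPM and 18.58 and 21.26 FPKM in control and KO, with a log2 ratio of 0.19 (0.09 to 0.30; adjusted p = 0.0018 in the exact binomial test). *Ap2b1* had 2479 and 2146 counts, 141 and 159 CPM and 29.28 and 32.15 FPKM, with a log2 ratio of 0.18 (0.09 to 0.26; exact binomial adjusted p = 0.000205). Both intervals lay above 0, and both ratios lay under 0.25.

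*Ap2a1*, the alpha A subunit, had 2099.78 counts in the control and 1664.57 in the KO library, 119 and 124 CPM, and 35.91 and 37.35 FPKM. Its log2 ratio of 0.05 (-0.04 to 0.15; adjusted p = 0.443 in the exact binomial test) did not pass. *Ap2m1*, the mu 2 subunit, which binds tyrosine-based sorting signals, had 8258 and 6051 counts, 469 and 449 CPM, and 200.50 and 194.07 FPKM. Its log2 ratio of -0.06 (-0.11 to -0.01) passed the exact binomial test (adjusted p = 0.0319). In size it was the smallest ratio that passed, in the AP2 subunit with most counts, and it belongs to a gene that shares 32.3% of its words of 31 bases with other annotated transcripts, mostly processed pseudogenes.

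*Picalm* and *Dnm2* did not differ between the libraries by the read test. *Picalm* had 3352 and 2608 counts, 190 and 194 CPM and 59.40 and 59.89 FPKM, with a log2 ratio of 0.02 (-0.05 to 0.10; exact binomial adjusted p = 0.688). *Dnm2* had 1710.49 and 1354.36 counts, 97.1 and 100 CPM and 30.43 and 30.55 FPKM, with a log2 ratio of 0.05 (-0.06 to 0.15; exact binomial adjusted p = 0.519). Their intervals left out differences larger than 0.10 and 0.15 on the log2 scale. The paralogues of these genes were low per length: *Dnm1*, best known from neurons, had 8.63 and 9.66 FPKM from 559 and 483 counts, *Dnm3* had 0.51 and 0.64 FPKM from 26 and 23 counts, and *Snap91*, which encodes the neuronal relative of CALM, AP180, had 2.35 and 2.54 FPKM from 139 and 92 counts. None of these 3 passed the read test (adjusted p = 0.121, 0.795 and 0.447, exact binomial test).

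The order of the levels per length was nearly the same in both libraries. By FPKM, *Ap2m1* was highest in the control, followed by *Clta*, *Cltc*, *Ap2s1*, *Picalm*, *Ap2a1*, *Dnm2*, *Ap2b1*, *Cltb* and *Ap2a2*. *Dnm2* and *Ap2b1* changed places in the KO library. These neighbours did not differ beyond counting error in either library, with FPKM ratios of 1.04 (0.977 to 1.11) in the control for *Dnm2* over *Ap2b1* and 1.05 (0.983 to 1.13) in the KO for *Ap2b1* over *Dnm2*. Every other pair of neighbours differed beyond counting error in both libraries. Among all genes tested, the control FPKM of these genes ranked from the 62.9th percentile for *Ap2a2* to the 97.4th for *Ap2m1*.

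**Figure D2:**
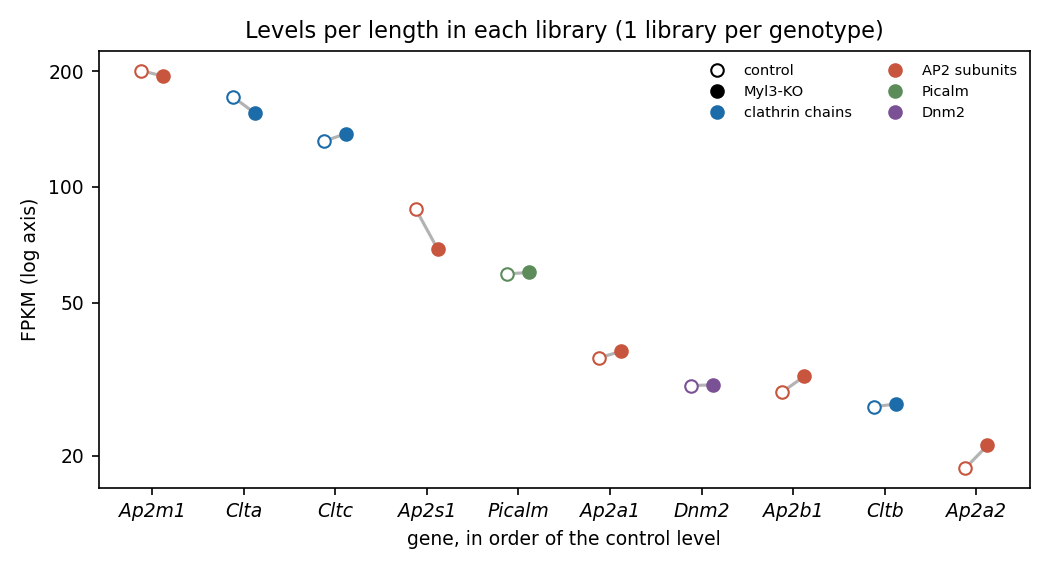
FPKM (log axis) of each gene in the control library (open circles) and the Myl3-KO library (filled circles), in order of the control level. Levels ranged from 18.58 for *Ap2a2* to 200.50 for *Ap2m1* in the control, and *Ap2s1* had the steepest line, from 87.48 to 68.78.

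The order rests on the length used. With counts per kilobase of all annotated exons of a gene in place of FPKM, *Picalm* moved from place 5 to 9, *Ap2a2* from 10 to 8 and *Cltb* from 9 to 10, in both libraries, so that *Cltb* and not *Ap2a2* was lowest. The first 4 places did not change. *Picalm* has 15732 bases of annotated exon over its 15 transcripts, against a length of 3204 bases implied by its FPKM and count. Between subunits of a complex, *Clta* made 86.5% of the light chain FPKM in the control and 85.1% in the KO library. Both light chains summed to 1.51 times the *Cltc* FPKM in the control and 1.33 times in the KO. Both alpha subunits summed to 1.86 and 1.82 times the *Ap2b1* FPKM, and *Ap2a1* made 65.9% and 63.7% of the alpha FPKM. The mu and sigma subunits were above the beta subunit, with *Ap2m1* at 6.85 and 6.04 times and *Ap2s1* at 2.99 and 2.14 times the *Ap2b1* FPKM. From *Ap2a2*, 1 of the 2 alpha subunits a complex can hold, to *Ap2m1*, the AP2 levels spread over 10.8 times in FPKM in the control and over 9.13 times in the KO.

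A ratio of 2 genes within a library needs no scaling between libraries, and it was tested for 15 pairs by Fisher's exact test, two-sided, with adjustment over the 15. Differences between the libraries that move with gene length or GC, described below, do not cancel in such a ratio. The ratio differed in 7 pairs: 1 of the 3 pairs of clathrin chains, 6 of the 10 pairs of AP2 subunits, and neither *Picalm* nor *Dnm2* against *Cltc*. Of the 6 AP2 pairs, 4 held *Ap2s1*, and the other 2 set *Ap2m1* against *Ap2a2* and *Ap2b1*.

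In the clathrin coat, *Clta* was lower against *Cltc* in the KO library, with a log2 difference in counts of -0.16 (-0.25 to -0.08; Fisher's exact adjusted p = 0.000457). The FPKM ratio of this pair was 1.31 in the control and 1.13 in the KO, a larger difference than that in counts, since the FPKM ratio of *Cltc* between the libraries, 0.07 on the log2 scale, was above its count ratio of 0.03. *Clta* against *Cltb* gave -0.15 (-0.31 to 0.02; adjusted p = 0.103, Fisher's exact test), an interval that reached 0 and also covered the size of the first difference. *Cltb* against *Cltc* gave -0.02 (-0.17 to 0.13; adjusted p = 0.895, Fisher's exact test). Only the pair of the most abundant chains, with most counts, was called.

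In AP2, the widest pair was *Ap2a2* against *Ap2s1*, whose FPKM ratio was 0.212 in the control and 0.309 in the KO, a log2 difference of 0.54 (0.37 to 0.71; Fisher's exact adjusted p = 1.41e-09). *Ap2b1* against *Ap2s1* differed by 0.53 (0.37 to 0.68; adjusted p = 2.51e-10), *Ap2a1* against *Ap2s1* by 0.40 (0.24 to 0.56; adjusted p = 3.92e-06) and *Ap2m1* against *Ap2s1* by 0.28 (0.15 to 0.42; adjusted p = 0.000122), all by Fisher's exact test. Sigma was thus lower in the KO library against each of the other 4 subunits. The mu subunit was lower against *Ap2a2* (0.26 for *Ap2a2* minus *Ap2m1*, 0.14 to 0.38; adjusted p = 4.91e-05) and against *Ap2b1* (0.24, 0.14 to 0.34; adjusted p = 3.92e-06) by the same exact test. The 2 alpha subunits against each other gave -0.14 (-0.29 to -0.00; adjusted p = 0.0732, Fisher's exact test) for *Ap2a1* minus *Ap2a2*, and *Ap2a2* against *Ap2b1* gave 0.02 (-0.12 to 0.15; adjusted p = 0.895, Fisher's exact test). *Picalm* and *Dnm2* against *Cltc* gave -0.00 (-0.09 to 0.08) and 0.02 (-0.09 to 0.13).

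**Figure D3:**
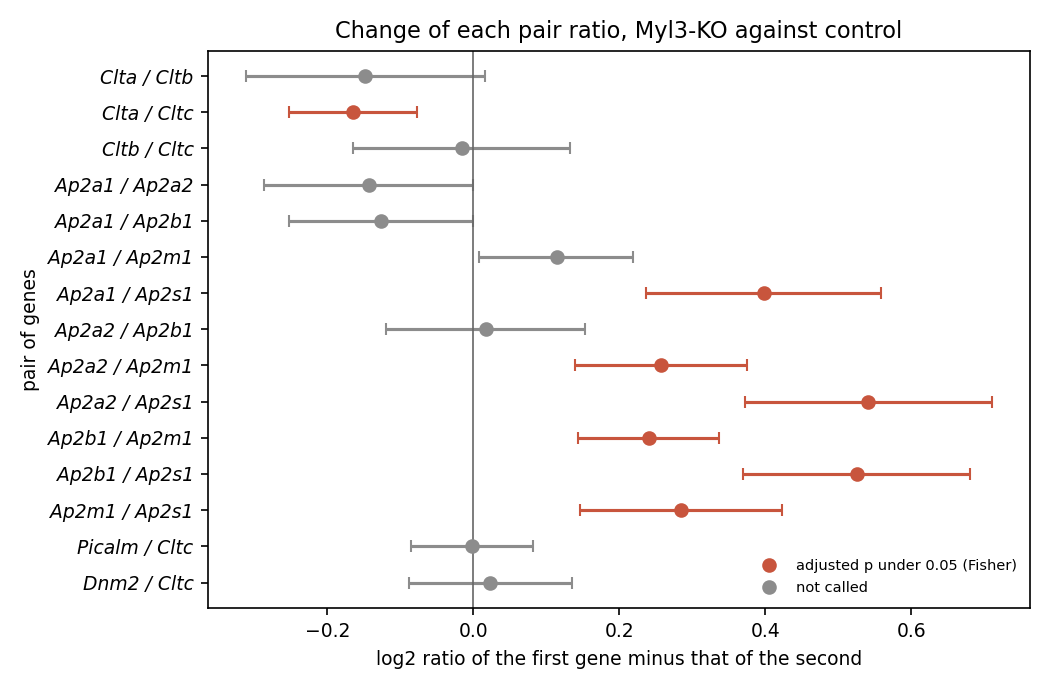
Difference in log2 ratio (Myl3-KO over control) between the first and the second gene of each of 15 pairs, with 95% counting intervals, in red where Fisher's exact test passed after adjustment. The 4 pairs with *Ap2s1* ran from 0.28 to 0.54, and the pairs of *Picalm* and of *Dnm2* with *Cltc* lay at -0.00 and 0.02.

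The log2 ratio moved with length and base composition over the whole table. Over the 6373 well-counted genes with a known length, split into 10 bins, the median log2 ratio was -0.131 for genes with 374 to 2199 bases of exon and 0.0846 for those with 11013 or more. By GC content of the longest transcript it was -0.12 in the lowest bin and 0.103 in the highest. *Ap2s1* and *Clta*, the members with the lowest ratios, have the shortest exon lengths, 1472 and 1800 bases, and *Ap2b1* has 8755. With the median of the length bin taken off, an alternative chosen after seeing the data, *Clta* was at -0.01, *Ap2s1* at -0.22, *Ap2m1* at -0.03, *Ap2a2* at 0.18 and *Ap2b1* at 0.15. With the GC median also taken off, *Clta* was at -0.11, *Ap2s1* at -0.32, *Ap2m1* at -0.09, *Ap2a2* at 0.10 and *Ap2b1* at 0.13. The signs of these 5 genes held under both, and the sizes depended on which was used, in proportion more for *Clta*, *Ap2m1* and *Ap2a2* than for *Ap2s1* and *Ap2b1*. *Cltc* was at -0.003 with the length median taken off, near *Clta*, and at 0.055 with the GC median also taken off. The pair tests were not repeated with these medians taken off. The part of length and GC in the differences was otherwise not tested.

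**Figure D4:**
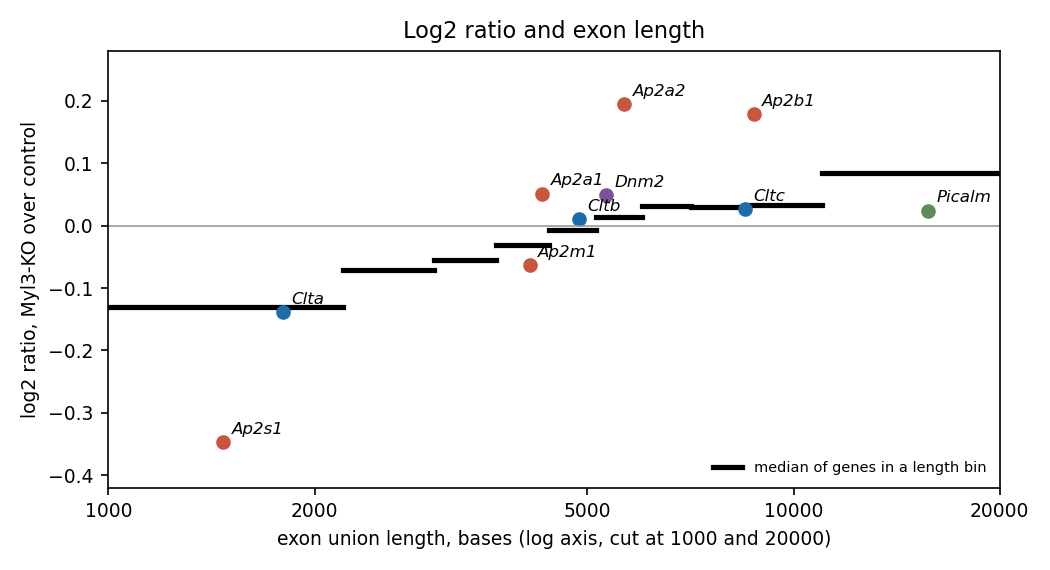
Log2 ratio, Myl3-KO over control, against exon length (log axis) for the 10 genes (points), with the median of well-counted genes in each of 10 length bins (black bars). *Clta* lay on the bar of the shortest bin, at -0.14 against -0.131, while *Ap2s1* lay below it and *Ap2a2* and *Ap2b1* above theirs.

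The members are protein-coding genes spread over 6 chromosomes, with coordinates in GRCm38 from GENCODE M21. The clathrin genes lie at chr4:44004452-44032846 (*Clta*, plus strand), chr13:54592401-54611344 (*Cltb*, minus) and chr11:86694351-86757565 (*Cltc*, minus). *Ap2b1* lies on the same chromosome as *Cltc*, at chr11:83299024-83405035 (plus). Chromosome 7 holds *Ap2a1* (chr7:44900373-44929496, minus), *Ap2a2* (chr7:141562173-141633011, plus), *Ap2s1* (chr7:16738410-16749294, plus) and *Picalm* (chr7:90130213-90213465, plus). *Ap2m1* lies at chr16:20535478-20544909 (plus) and *Dnm2* at chr9:21424908-21507759 (plus). Exons of *Ap2a1* overlap those of *Fuz* on the opposite strand (102.22 and 118.43 counts), and exons of *Dnm2* overlap those of *Tmed1* (504.51 and 364.64 counts), also on the opposite strand. No strand setting is given in the sources used here, so reads from the overlaps may not be told apart. *Ap2a1* and *Dnm2* are the 2 members with fractional counts, and the other 8 had whole ones.

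Sequence shared with other genes limits how surely a read can be given to *Ap2m1* and, over a smaller part, to the alpha subunits and *Ap2b1*. Of the words of 31 bases in *Ap2m1* transcripts, 32.3% occur in other annotated transcripts, 27.9% in the processed pseudogene *Gm13509*, for which no count was used here. *Clta* shares 0% and the rest share at most 3.21%. This highest value is that of *Ap2a2*, with 1.86% of its words in the pseudogene *Gm4962* and 1.35% in *Ap2a1*. *Ap2b1* shares 2.91%, all with the processed pseudogene *Gm12834*. The longest run of identical bases between *Ap2a1* and *Ap2a2* is 68 bases, in exon 11 of both and within the coding sequence, and it is shown because reads inside it fit both genes. The longest runs were 34 bases between *Dnm2* and *Dnm1*, 35 between *Dnm2* and *Dnm3*, 15 between *Picalm* and *Snap91*, and 13 between *Clta* and *Cltb*. The shared run lies at chr7:44905746-44905813 (minus) in *Ap2a1* and chr7:141619505-141619572 (plus) in *Ap2a2*.
Ap2a1 and Ap2a2, shared run: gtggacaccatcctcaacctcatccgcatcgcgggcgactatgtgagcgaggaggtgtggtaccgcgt

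The promoters of these genes were mostly rich in CpG. RefSeq windows of GRCm38.p6, taken here as the 250 bases before each start, numbered 11 for the 10 genes, *Clta* having 2. Their median ratio of observed to expected CpG was 0.816 and their median GC content 58%, against 0.373 and 52.4% over all 32851 windows. On either strand, the GC box core GGGCGG was in 6 of 11 windows (32.7% of all), the ETS core CGGAAG in 3 (13.6%), CCAAT in 4 (33.8%), the E-box CACGTG in 2 (6.02%) and TATAAA in 0 (12.4%). Matches overlapped one another only in the *Dnm2* window, where a CCAAT and its reverse share bases. The AP2 subunits with the highest and the lowest ratio between the libraries are shown, up to the first annotated exon base, with motif matches in capitals. *Ap2a2* is at chr7:141561930-141562172 (plus), with 2 GC boxes and a reversed CCAAT. *Ap2s1* is at chr7:16738194-16738409 (plus), with none in this stretch. Its window is 1 of the 3 with an ETS core, which lies in the exon bases left out.
Ap2a2: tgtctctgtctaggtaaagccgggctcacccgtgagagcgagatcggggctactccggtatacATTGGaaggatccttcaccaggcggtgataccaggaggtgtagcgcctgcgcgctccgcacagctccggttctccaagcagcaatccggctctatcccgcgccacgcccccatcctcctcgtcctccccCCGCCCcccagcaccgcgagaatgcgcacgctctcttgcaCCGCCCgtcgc
Ap2s1: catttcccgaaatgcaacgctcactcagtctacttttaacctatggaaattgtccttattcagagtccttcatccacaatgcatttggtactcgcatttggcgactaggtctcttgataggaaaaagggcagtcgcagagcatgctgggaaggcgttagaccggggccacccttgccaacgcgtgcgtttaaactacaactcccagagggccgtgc

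Other genes of clathrin-mediated endocytosis, from lists of nucleation, cargo, kinase and lipid, curvature and uncoating factors, were set beside the core genes. Of 51 genes, 46 were tested. Of these, 10 were higher and 2 lower by 0.25 or more, and by reads 17 were called higher and 4 lower, with a median log2 ratio of 0.12, against 0.02 over all genes tested and 0.02 for the 10 core genes. Over all genes tested, 20.2% were higher and 14.1% lower by 0.25 or more, and 18.6% and 16.8% by reads. Among well-counted genes the shares were 10.4% and 11.0% for the limit, and 24.0% and 27.3% by reads. The count higher by 0.25 or more was near the share over all genes tested and above that of well-counted genes. By reads the count higher was above both shares, and both counts of lower genes were below them. These differences were not tested. None of the 46 passed a log2 ratio of 1. The highest with at least 100 counts were *Snx33* (454 and 530 counts, log2 ratio 0.61) and *Pacsin3* (325 and 365, 0.55), membrane-bending proteins, and *Ston2* (178 and 206, 0.60), a cargo adaptor. The lowest were *Arrb1* (339 and 176, -0.56), the arrestin that brings G-protein coupled receptors to the coat, *Bmp2k* (973.5 and 647.94, -0.20), a kinase related to the AP2 kinase AAK1, and *Pik3c2a* (1045 and 702, -0.19), a lipid kinase of the pit. *Myo6*, a motor that binds endocytic adaptors, had 685 and 715 counts, a log2 ratio of 0.45 (0.30 to 0.60; exact binomial adjusted p = 9.51e-08). Between the sub-lists, medians ran from 0.04 for the 2 uncoating factors tested to 0.22 for the 6 nucleation and scaffold genes. By reads, 3 nucleation and scaffold genes were higher and 0 lower, and of the 14 cargo adaptors tested 3 were higher and 2 lower. Of the 10 AP2 kinases and lipid enzymes, 3 were higher and 2 lower. The 14 tested genes of membrane curvature and scission had 7 higher and 0 lower, and the uncoating factors 1 and 0, the higher one being *Gak*, the kinase with an auxilin domain (2811 and 2442 counts, log2 ratio 0.18). Examples among the nucleation genes were *Fcho2* (2452 and 2320 counts, 0.31) and *Eps15* (2181 and 1615 counts, -0.05), the first called higher and the second not. *Gak*, *Fcho2* and *Eps15* were chosen after their values were seen.

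The other adaptor complexes, AP1, AP3, AP4, AP5 and the GGA proteins, sort cargo at the trans-Golgi network and endosomes. Of their 26 subunits, 24 were tested, 7 were higher and 0 lower by 0.25 or more, and by reads 10 were called higher and 1 lower, with a median log2 ratio of 0.13. The shares over all genes tested were 20.2% and 14.1% for the limit and 18.6% and 16.8% for the reads. Among well-counted genes they were 10.4% and 11.0% for the limit, and 24.0% and 27.3% for the reads. The single one called lower was *Ap1s1*, a sigma subunit of AP1 (2773 and 1827 counts, log2 ratio -0.22, exact binomial adjusted p = 5.92e-06). The other low ones were *Ap5b1* (69 and 47 counts, -0.17) and *Ap3m1* (3093.03 and 2240.91, -0.08), and the high ones were *Ap1g2* (206 and 226, 0.52), *Ap5z1* (459 and 489, 0.48) and *Ap3d1* (2203 and 2244, 0.41). The remaining sigma subunits were not called and lay on both sides of 0. Those of AP1 were *Ap1s2* (0.067) and *Ap1s3* (-0.035). Those of AP3, AP4 and AP5 were *Ap3s1* (-0.065), *Ap3s2* (0.123), *Ap4s1* (-0.047) and *Ap5s1* (0.337). The spread of subunit ratios within AP2, 0.54 from lowest to highest, lay between those of AP4 (0.37, 3 subunits) and AP1 (0.74, 7 subunits), with AP3 at 0.49 and AP5 at 0.65. These spreads include counting error, which is larger for the low-count subunits of AP1 and AP5, and the differences between them were not tested. Of the single lists, by reads, AP1 had 3 subunits higher and 1 lower of 7 tested, AP3 had 2 higher and 0 lower of 6, AP4 had 1 and 0 of 4, AP5 had 1 and 0 of 4, and the GGA genes had 3 and 0 of 3.

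**Figure D5:**
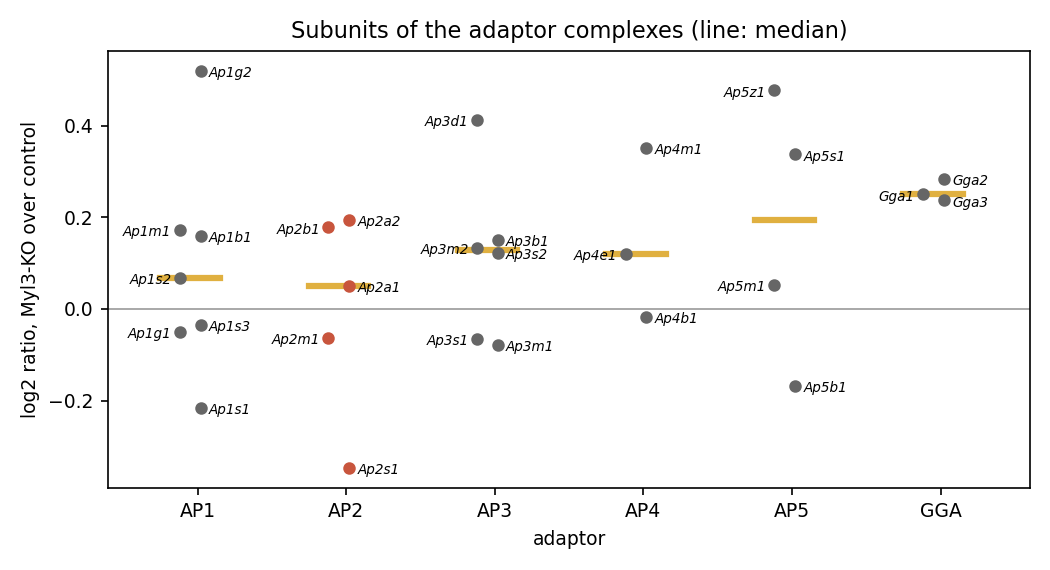
Log2 ratio, Myl3-KO over control, of each subunit with at least 100 counts, by adaptor complex (AP2 in red, others grey, yellow line at the median). *Ap2s1* at -0.35 and *Ap1s1* at -0.22 were the lowest of their complexes, and the 3 GGA genes lay between 0.24 and 0.28.

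In the pathway column of the table, 9 of the 10 genes carry the endocytosis pathway, *Picalm* being the exception, and the 3 clathrin chains also carry the lysosome pathway. The other 212 tested genes of the endocytosis pathway had a median log2 ratio of 0.05, with 39 higher and 15 lower by 0.25 or more and 3 past 1 in size. Of all genes tested, 20.2%, 14.1% and 3.35% did so, and of the well-counted genes 10.4%, 11.0% and 0.0470%. The count higher was near the share over all genes tested, and the counts lower and past 1 were below theirs. Against the well-counted genes, the counts higher and past 1 were above and the count lower was below. The 212 genes were not split by depth, and these differences were not tested.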

How the data were processed

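RNA of primary chondrocytes was sequenced on a Novaseq instrument, 1 library per genotype. The labels name a SMARTER mRNA kit, and the methods describe oligo bead enrichment and random primers. The authors deposited expected counts and FPKM for 22156 genes. The processing notes name GRCm38 and mm10, and the aligner, counter and strand setting are not given in the sources used here. The column NC was read as the control, since the other is KO. The members and lists were chosen with earlier results of these data known.

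Expected counts were rounded for tests. The log2 ratio was of counts over library totals, with counts under 3 raised to 3 and 95% Clopper-Pearson intervals. Genes whose counts summed to at least 10 were tested by the exact binomial test, adjusted by Benjamini-Hochberg, and gene pairs by Fisher's exact test (scipy 1.17.1). Alternatives used edgeR 4.0.16 (TMM, and its exact test at preset coefficients of variation) and DESeq2 1.42.0 size factors. Lengths, words of 31 bases and overlaps came from GENCODE M21, and promoters from RefSeq. Named genes were the members, their paralogues, *Myo6*, and the 3 highest and 3 lowest with at least 100 counts of the other endocytic genes and of the other adaptors. The tests were checked on simulated data with counting error only, which cannot show how they behave with spread between cultures. Library totals of 17612435 and 13477977 counts set the precision.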

Additional observations from a re-analysis of the deposited data

How the results depend on the processing

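Counting error was the only error in the tests, and the limits follow from it. When spread between cultures was preset in the edgeR exact test, 0 members were called at a coefficient of variation of 0.1, 0 at 0.2 and 0 at 0.4, against 5, with smallest unadjusted p of 0.109, 0.406 and 0.679, so that 0 passed unadjusted. Over the 12436 genes that passed the filter on rounded counts it called 61, 4 and 1. With a coefficient of variation of 0.05, 0.1 or 0.2 added to each count, 2, 0 and 0 of the 15 pairs differed, against 7, and 3, 0 and 0 passed at an unadjusted p under 0.05. Bonferroni adjustment kept the count at 7. There was no replicate to leave out. No paired analysis was possible because there was 1 library per genotype.

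TMM, DESeq2 and both other filters on low counts gave 0 members past a log2 ratio of 1, 1 past 0.25 and 5 by reads. No sign of a called member changed. The FPKM ratio gave 0.07 for *Cltc* in place of 0.03. Per kilobase of exon, the alpha subunits summed to 2.67 times *Ap2b1* in the control, against 1.86 by FPKM, and *Ap2m1* was 7.47 times *Ap2a2*, against 10.8. With length, or length and GC, medians taken off, alternatives chosen after seeing the data, the called members *Clta* and *Ap2s1* were at -0.01 and -0.22 (length), the second then under 0.25 in size. *Picalm* was at -0.06 (length), and *Ap2a1* at -0.06 and *Dnm2* at -0.10 (both), 3 members that were not called.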
